A study of Mus musculus with 4 samples.

Results

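Smooth muscle rich spots of the mouse lung were selected on 5 transcripts of contractile smooth muscle, Acta2, Myh11, Tagln, Cnn1 and Actg2. On Visium slides a barcoded spot collects mRNA of the several cells lying on it, and molecules are counted by their unique molecular identifiers (UMIs). For each spot with at least 2000 UMIs, the summed UMIs of the 5 genes were divided by all UMIs of that spot, and the highest 5% of spots within each section were taken as members. This gave 231 members among 4933 deposited spots, of which 4632 reached 2000 UMIs, and the 4401 others served for comparison. Of the members 39 lay in the section of the NV male, 22 in that of the NV female, 74 and 96 in those of the V male and female.

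The sections came from upper pulmonary branches of adult C57BL/6J mice, 1 section for each of 4 mice. The V (vaped) male and female inhaled e-vapor of flavored juice from JUUL pens in whole body chambers, and the NV (non-vaped) male and female did not. With 2 mice in each group, p-values rest on the spread between these 4 sections, which the test used below pools in part over genes. A single gene can therefore vary more between sections than its p-value and standard error show. For V against NV, an exact two-sided permutation test over mice could not go below 0.333.

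Smooth muscle cells wrap the bronchi, the pulmonary arteries and the larger veins, where they set the width of the tube. They shorten when calcium activates myosin light chain kinase, and relaxing signals such as nitric oxide act through cyclic GMP and potassium channels. Airway and vascular smooth muscle share most of their contractile transcripts, and the walls of the large pulmonary veins of mice also hold cardiac muscle.

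The 5 genes chose the members, so their levels are a description. Levels are given as UMIs per 1000000 UMIs (CPM) of the summed spots of a section, and where 4 values follow each other they belong to the NV male, the NV female, the V male and the V female, in this order. Together the 5 genes reached 1551, 1178, 788 and 2049 CPM in members and 235, 188, 125 and 252 CPM in other spots. The V male was lowest and the V female highest in both sets of spots, so the V and NV mice overlapped.

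Acta2, the alpha actin of smooth muscle, gave between 37.7% and 48.8% of the marker UMIs of members, and Tagln, an actin-binding protein, between 31.8% and 46.5%. Myh11, the smooth muscle myosin heavy chain, gave 10.96% to 13.98%. Cnn1 (calponin) and Actg2 (gamma actin of smooth muscle) were the scarcest, with 4 UMIs each over the 74 members of the V male against 266 and 182 UMIs in the V female. When members were chosen by the other 4 genes alone, Acta2 reached 630, 511, 170 and 879 CPM in the spots chosen and 116, 95.3, 41.4 and 122 CPM in the remaining ones. Each of the 5 genes was thus higher in every section in spots ranked without it.

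The score fell steeply with rank. Its highest values were 0.677%, 0.266%, 0.246% and 0.697% of a spot's UMIs, in the order of sections above. The last member lay at 0.0855%, 0.0733%, 0.0491% and 0.0929%, and the first spot left out at 0.0846%, 0.0731%, 0.0489% and 0.0919%. Membership in the V male rested on few molecules, with a median of 3 marker UMIs per member (range 2 to 23) and 49 of 74 members under 5. The medians were 11 (2 to 120) and 22 (3 to 62) in the NV male and female and 28.5 (2 to 230) in the V female.

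**Figure D1:**
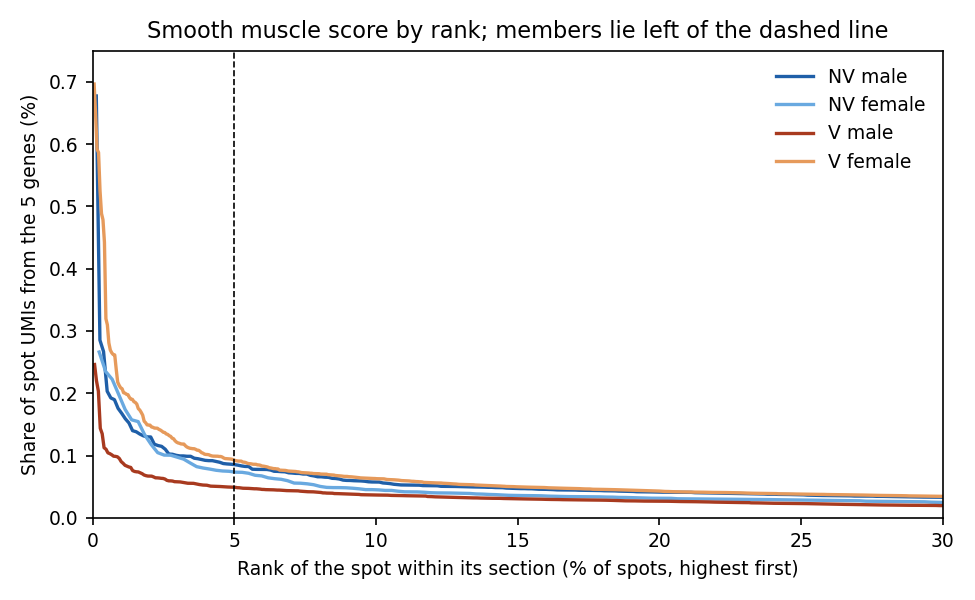
Share of each spot's UMIs that came from the 5 genes (%, y axis) against the rank of the spot within its section (%, x axis, highest first, shown up to 30%), 1 line per section. The V female and NV male peak near 0.7%, the V male and NV female near 0.25%, and at the 5% line the sections lie between 0.0491% and 0.0929%.

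Whole sections held 6957392 to 34308556 UMIs, and members held 449060 to 1996160 UMIs in sum. The median depth per spot was 10083, 17630.5, 5423 and 19630.5 UMIs in members and 10169.5, 10927.5, 6580 and 11942 UMIs in other spots. The libraries shared 277 to 1167 spot barcodes in pairs, since the slides carry a common barcode set. The V male also stood apart in tissue content: a list of 8 cardiac muscle genes reached 32.0 CPM in its members, against 35123 and 37596 CPM in the NV pair and 20840 CPM in the V female.

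The label of the spots was checked against cardiac muscle in turn. At least 1% of UMIs came from the cardiac list in 31 of 39, 13 of 22, 0 of 74 and 34 of 96 members, by section. In the other spots this held for 164 of 742, 50 of 414, 0 of 1415 and 164 of 1830. The choice therefore took smooth muscle transcripts together with heart-type muscle in 3 sections, and "smooth muscle rich" describes the 5 genes rather than the sole cell type of the spots. Members below 1% had more of the 5 genes than members at or above it, at 2300 against 1314 CPM and 1537 against 1044 CPM in the NV pair and 2418 against 1664 CPM in the V female. Counts of called genes of the lists are also given for members chosen anew among spots with under 1% of cardiac UMIs, referred to as the cardiac limit.

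The first question was which other transcripts lay in the same spots as the 5 genes. Sums of members were compared with sums of the other spots, paired by section, over 13744 genes with edgeR's quasi-likelihood test, with p-values adjusted after Benjamini and Hochberg. Calls needed an adjusted p below 0.05 together with an absolute log2 fold change above 0.25. The 5 genes were left out. In members, 758 genes were higher (5.52% of those tested) and 349 were lower (2.54%), with a median log2 fold change of -0.01 over all genes. Of the 1107 called genes, 640 moved the same way in each of the 4 sections. When the choice was limited to spots with under 1% of cardiac UMIs, 176 genes (1.32%) were higher and 82 (0.614%) lower, and 192 genes were called in both. Without the V male, 855 genes (6.32%) were higher and 457 (3.38%) lower. As the score divides by all UMIs of a spot, an abundant transcript elsewhere lowers it by construction, and in sums fewer cells of a type and less RNA per cell cannot be told apart.

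The contractile apparatus rose with the 5 genes. Of its 22 tested genes 14 were higher and 0 lower, with a median log2 fold change of 0.69, and 12 of the 14 were higher in all 4 sections. Among the 22 changes 20 were positive and 2 negative. The lowest was that of Synm at -0.36, which was not called and is named after its value was seen. In sum the list stood at 1.38, 1.53, 1.15 and 1.69 times its level in other spots. By edgeR 17 of the 22 had an unadjusted p under 0.05. With the cardiac limit 12 were higher and 0 lower (median 0.41), and without the V male 15 were higher and 0 lower. The 12 were not all among the 14. Tpm1, Hspb6, Pgm5 and Nexn lost their call with the cardiac limit, while Mylk and Actn1 were called there but not over the full set. These genes are named here after their values were seen.

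Myl9, the regulatory light chain of smooth muscle myosin, was counted at 302, 281, 109 and 525 CPM in members and 78.7, 77.5, 28.8 and 94.3 CPM in other spots. Members stood above the other spots in each section. The log2 fold change was 2.22 ± 0.12 (SE, adjusted p = 7.4e-35), and 2.08 among spots with under 1% of cardiac UMIs. Lmod1 (leiomodin), which nucleates actin filaments, had 43.8, 22.3, 15.04 and 56.6 CPM in members and 7.80, 4.79, 3.74 and 8.74 CPM in other spots. Its log2 fold change of 2.62 ± 0.22 (adjusted p = 8.5e-21) was the largest in the list, on 8 to 113 UMIs per section in members.

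Tpm2, a tropomyosin that lies along the actin filament, reached 136, 183, 63.9 and 270 CPM in members and 60.4, 51.1, 38.1 and 63.2 CPM in other spots. Its log2 fold change was 1.73 ± 0.13 (adjusted p = 7.4e-24). Synpo2, an actin-binding protein of the Z-disc and dense bodies, was higher in the 4 sections as well (1.41 ± 0.15, adjusted p = 1.8e-14). Both were also called among spots with under 1% of cardiac UMIs, at 1.63 and 1.46.

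Levels were also read in bins of score rank. Myl9 went from 302 CPM in the highest 5% of spots of the NV male to 130 CPM in the next 5% and 69.8 CPM in the lower-ranked 50%. In the V male the same bins held 109, 33.2 and 26.2 CPM, and in the V female 525, 183 and 75.5 CPM. Tpm2 went from 136 to 91.9 and 55.5 CPM in the NV male and from 63.9 to 60.2 and 35.4 CPM in the V male, where the first 2 bins were thus close. In the NV male the cardiac list went from 35123 to 26924 and 11911 CPM.

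**Figure D2:**
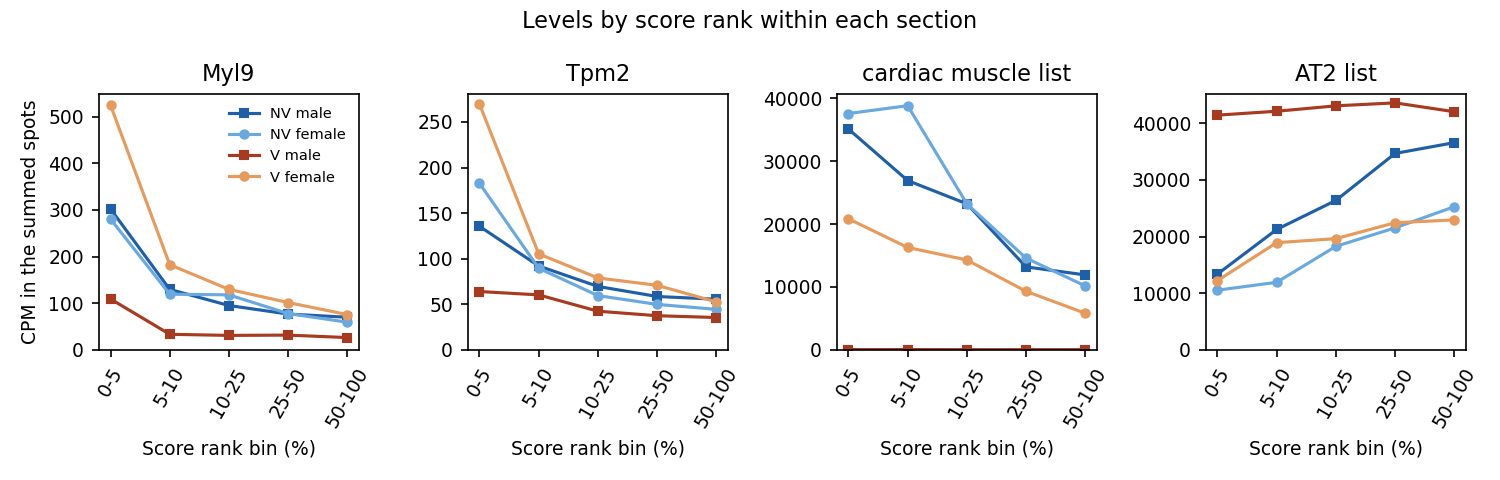
CPM in the summed spots (y axis, linear, from 0) of Myl9, Tpm2, the cardiac muscle list and the AT2 list in bins of score rank (x axis, %), 1 line per section. Myl9 drops from 525 to 183 CPM between the first 2 bins of the V female, while the AT2 list of the V male stays between 41452 and 43620 CPM in every bin.

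Serum response factor binds the CArG box, a motif known for its part in smooth muscle transcription, so the RefSeq promoter windows (GRCm38.p6, 300 bases, of which 250 lie before the start site) were read for it. A window was at hand for 22 of the 27 genes of the rule and contractile list, and 3 of these genes (13.6%) held a box, beside 1.63% of all 32851 windows and 1.81% of all 27025 genes. The pattern, CC and GG around a run of A or T of fixed length, was matched exactly and reads the same on both strands. The 3 stretches are shown 5′ to 3′ on the strand of the gene, with the box in capitals.
Myl9, chr2:156775283-156775332, plus strand: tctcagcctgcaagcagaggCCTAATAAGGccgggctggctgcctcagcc
Myl6, chr10:128493030-128493079, minus strand: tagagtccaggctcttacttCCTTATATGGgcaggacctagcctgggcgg
Vcl, chr14:20929151-20929200, plus strand: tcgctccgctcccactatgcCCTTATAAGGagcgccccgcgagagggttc
The boxes began 161, 50 and 227 bases before the start site of their own window. Another window of Myl6, at chr10:128493837-128494136, held 0 boxes. Myl9 had one of the largest changes in members, while Myl6, a light chain shared by muscle and non-muscle myosin, changed by 0.13 ± 0.12 and Vcl (vinculin) by -0.11 ± 0.12 on the log2 scale, neither past the threshold. The match is a description of letters, and Acta2 and Cnn1 had no exact match in these windows. Boxes with a mismatch to the pattern were not searched for.

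Of 11 tested genes of calcium and tone signalling, 2 were higher and 0 lower, with a median of 0.32. Among the 11 changes 8 were positive and 3 negative, and without the V male 3 genes were called higher and 1 lower. In sum the list stood at 0.847, 0.785, 0.929 and 1.10 times its level in other spots, so it was lower in members of all sections but the V female. Kcnmb1, the beta subunit that tunes the large-conductance potassium channel, had 6.25, 13.4, 5.64 and 14.5 CPM in members and 2.03, 1.39, 1.603 and 2.92 CPM in other spots. The log2 fold change was 2.39 ± 0.40 (adjusted p = 1.3e-06) on 3 to 29 UMIs per section in members. Mrvi1, the target through which cyclic GMP kinase restrains calcium release, was higher in the 4 sections (1.53 ± 0.25, adjusted p = 4.7e-07). The same 2 genes were called among spots with under 1% of cardiac UMIs.

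Of 7 transcriptional regulators, 1 was higher and 1 lower. Among the 7 changes 5 were positive and 2 negative, and the highest, 2.11, belonged to a gene that was not called. In sum the list stood at 0.839, 0.787, 0.864 and 0.968 times its level in other spots. Tbx5, a T-box factor of heart and lung, was higher in 3 of 4 sections (0.57 ± 0.16, adjusted p = 0.010), and Foxf1, a forkhead factor of lung mesenchyme and capillaries, was lower in 4 of 4 (-0.55 ± 0.13, adjusted p = 6.8e-04). Neither was called among spots with under 1% of cardiac UMIs, where they changed by 0.01 and -0.27.

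Of 11 tested markers of vascular mural cells, pericytes included, 3 were higher and 0 lower (median 0.26). Among the 11 changes 6 were positive and 5 negative, and without the V male 4 genes were called higher and 2 lower. In sum the list stood at 1.08, 0.794, 0.980 and 1.06 times its level in other spots. Rgs5, a regulator of G protein signalling in pericytes, had 70.9, 100, 7.52 and 81.2 CPM in members and 27.6, 78.0, 7.03 and 60.8 CPM in other spots, a log2 fold change of 0.70 ± 0.15 (adjusted p = 2.5e-04). Abcc9, the sulfonylurea receptor of mural cells (0.74 ± 0.18), and Heyl, a Notch target (0.58 ± 0.19), were higher in 3 and 2 of 4 sections. Abcc9 alone of the 11 was called with the cardiac limit.

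Of 4 genes fixed as airway smooth muscle markers 3 were tested and 2 were higher. Chrm2, a muscarinic acetylcholine receptor that is also abundant in the atria, had 85.5, 80.2, 3.76 and 44.6 CPM in members and 35.6, 31.8, 6.32 and 20.4 CPM in other spots. It changed by 1.28 ± 0.17 (adjusted p = 2.0e-10), and Lgr6, a receptor of R-spondins, by 0.88 ± 0.17 (adjusted p = 3.3e-05). Neither was called among spots with under 1% of cardiac UMIs (0.63 with adjusted p = 0.52, and 0.35 with adjusted p = 0.77). The lists fixed for vessels and for airways therefore did not assign the members to either kind of tube.

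Some genes for the matrix of vessel and airway walls were higher in members. Of 10 elastic matrix genes 6 were higher and 0 lower (median 0.38), and 4 and 0 among spots with under 1% of cardiac UMIs. Among the 10 changes 8 were positive and 2 negative. In sum the list stood at 1.06, 1.08, 1.12 and 1.22 times its level in other spots. Eln, which encodes elastin, had 133, 71.3, 62.1 and 107 CPM in members and 61.7, 43.2, 54.7 and 54.9 CPM in other spots. Its log2 fold change was 0.92 ± 0.13 (adjusted p = 5.7e-09). Fbln2, a fibulin of elastic fibers, changed by 1.29 ± 0.15 and Mfap5, a microfibril protein, by 0.74 ± 0.13, both past the threshold in both sets of spots. In the V male Fbln2 had 5.64 CPM in members, on 3 UMIs, and 5.79 CPM in other spots.

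Of 8 fibroblast genes 6 were higher and 1 lower (median 0.66), and 6 and 0 among spots with under 1% of cardiac UMIs. The proteoglycans Lum and Dcn changed by 1.31 ± 0.13 and 1.06 ± 0.13, and the collagen Col3a1 by 0.73 ± 0.12. Dcn reached 1088, 1118, 35.7 and 1348 CPM in members and 460, 662, 39.6 and 600 CPM in other spots. The V male thus had far less Dcn than the other sections and no rise in members.

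Endothelial markers went in both directions. Vwf, the von Willebrand factor of larger vessels, had 461, 274, 515 and 361 CPM in members and 234, 196, 427 and 194 CPM in other spots (log2 fold change 0.78 ± 0.12, adjusted p = 1.2e-07), and Bmx, a kinase of arterial endothelium, changed by 1.49 ± 0.32 on 3 to 25 UMIs per section. These were the 2 genes called of 7 in the list of large vessel endothelium (median 0.14). Among the 7 changes 4 were positive and 3 negative. In sum this list stood at 1.33, 0.990, 1.115 and 1.30 times its level in other spots. Vwf (0.56, edgeR adjusted p = 4.7e-08) alone of the 7 was called with the cardiac limit, and Bmx stood at 1.1999 (adjusted p = 0.11). Of 6 capillary genes 5 were lower and 0 higher (median -0.42). Car4, the carbonic anhydrase on capillary endothelium, had 77.1, 62.4, 303 and 78.7 CPM in members and 220, 146, 307 and 142 CPM in other spots, so that the V male alone had near equal levels. It changed by -0.68 ± 0.13 (adjusted p = 4.6e-05) and was the 1 capillary gene called among spots with under 1% of cardiac UMIs (-0.38).

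Alveolar epithelial transcripts were lower in members. Of 6 genes of type 1 cells (AT1) 5 were lower, of 7 genes of type 2 cells (AT2) 7 were lower, and 0 were higher in either list, with medians of -0.49 and -0.65. Sftpc, the surfactant protein C of AT2 cells, had 10855, 8712, 35155 and 9986 CPM in members and 28042, 18247, 36146 and 18377 CPM in other spots. Its log2 fold change was -0.72 ± 0.14 (adjusted p = 7.2e-05), and Hopx of AT1 cells changed by -0.64 ± 0.13 (adjusted p = 5.3e-05). In the V male the summed AT1 and AT2 lists in members were 0.985 and 0.971 times those in other spots, against 0.396 to 0.576 times in the other sections. With the cardiac limit 1 gene of each list was called, Hopx at -0.31 and Slc34a2, the phosphate transporter of AT2 cells, at -0.30.

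**Figure D3:**
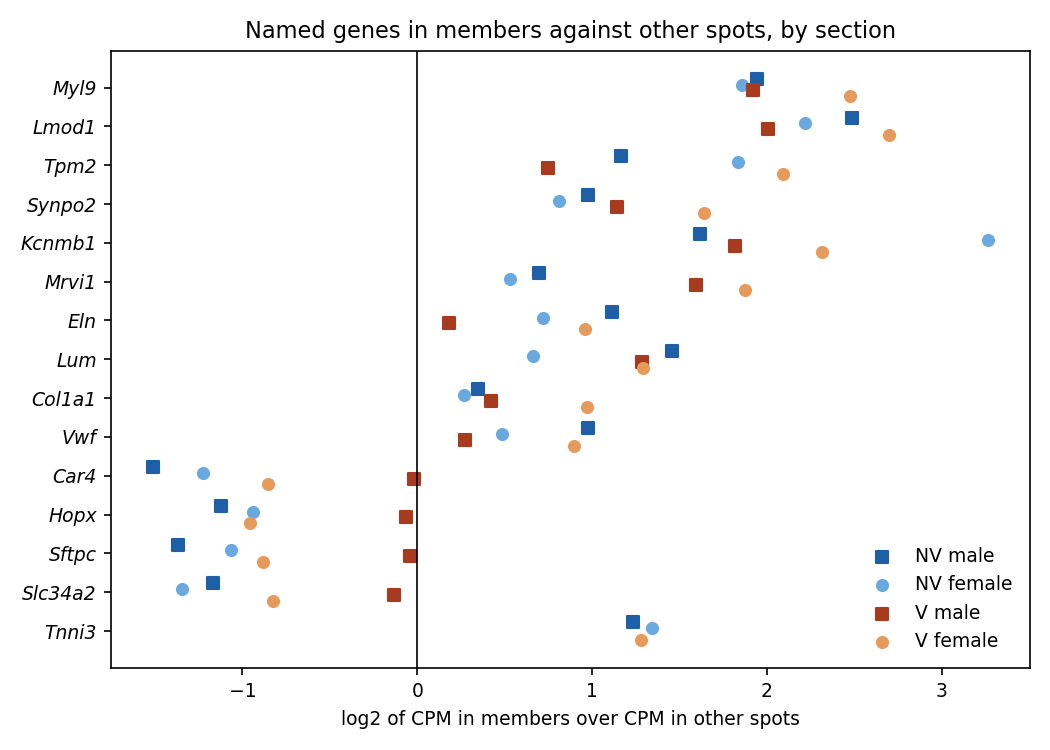
log2 of the CPM in members over the CPM in other spots (x axis) for 15 named genes (y axis), with 1 point per section where members held at least 3 UMIs (blue NV, red and orange V, squares males, circles females). Myl9, Lmod1, Tpm2 and Synpo2 lie right of 0 in the 4 sections, and Car4, Hopx, Sftpc and Slc34a2 lie left of it, with the V male nearest to 0.

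Cardiac muscle genes were higher in members, 8 of 8 in the list (median 1.37). Nppa, the atrial natriuretic peptide, had 4219, 3178, 1.88 and 2601 CPM in members and 898, 942, 6.05 and 420 CPM in other spots. Its log2 fold change was 2.24 ± 0.16 (adjusted p = 3.5e-26), and those of Myl7, the atrial myosin light chain, and Tnni3, cardiac troponin I, were 1.47 ± 0.15 and 1.46 ± 0.14. Among spots with under 1% of cardiac UMIs, a choice that itself bounds this list, 1 of the 8 was called. Of 4 tested skeletal muscle genes 2 were higher, Ckm (1.28 ± 0.13), the creatine kinase that heart also expresses, and Tnnt3 (1.61 ± 0.53), a fast troponin counted at 0 UMIs in members of 2 sections. By edgeR 0 of 3 tested skeletal genes were called with the cardiac limit and 1 had an unadjusted p under 0.05, Ckm standing at -0.03 and Tnnt3 at 1.79 (adjusted p = 0.091).

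The call of conducting airway epithelium depended on the spots allowed. Of 5 club cell genes 0 were higher and 1 lower: Scgb1a1, the secretory protein of club cells, had 7196, 773, 261 and 11767 CPM in members and 12756, 2206, 259 and 11523 CPM in other spots (-0.45 ± 0.14, adjusted p = 0.029). With the cardiac limit Scgb1a1 changed by 0.13, and 2 other club genes, the secretoglobin Scgb3a2 (0.61) and the cytochrome P450 Cyp2f2 (0.88), were higher. Of 6 ciliated cell genes 0 were called by edgeR and 1 had an unadjusted p under 0.05, with Tppp3, a tubulin-binding protein, at -0.08 ± 0.12 and Dynlrb2, a dynein light chain, at 0.20 ± 0.23. With the cardiac limit 1 of the 6 was higher, Foxj1, the factor that drives ciliation (1.30, edgeR adjusted p = 0.0070). Scgb3a2, Cyp2f2 and Foxj1 are named after their values were seen.

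Cartilage, which rings the large airways, was scarce outside the V female. Of 5 genes 3 were higher and 0 lower (median 1.33). Sox9, the factor that drives cartilage formation, had 8.34, 11.1, 1.88 and 22.0 CPM in members and 2.83, 3.40, 0.534 and 8.27 CPM in other spots (1.59 ± 0.34, adjusted p = 2.5e-04). Chad (chondroadherin) rested on the V female, with 138 UMIs in its members and 0 or 1 in the members of the other sections. The cardiac limit left 3 of the 5 higher, with Sox9 at 1.56 and Chad at 1.64.

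Of 5 macrophage genes 2 were higher and 1 lower. C1qa, a complement component, was higher in the 4 sections (0.73 ± 0.12, adjusted p = 7.5e-07), Mrc1, the mannose receptor of interstitial macrophages, changed by 0.55 ± 0.14, and Chil3, a chitinase-like protein of alveolar macrophages, by -0.54 ± 0.13. Of 8 basement membrane genes Lamb2 (0.48 ± 0.12), a laminin chain, was higher and Col4a2 (-0.39 ± 0.12), a collagen IV chain, was lower. Of 5 adipocyte genes 2 were lower, namely Cidec (-0.47 ± 0.14) and Ucp1 (-0.77 ± 0.21), the latter with 992 UMIs in members of the V female and 0 in those of the other sections. Of 4 genes of B and plasma cells, Cd79a of the B cell receptor was lower (-0.85 ± 0.16).

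Most of these calls were lost with the cardiac limit. C1qa alone of the macrophage genes was called (0.40, edgeR adjusted p = 0.048), while Mrc1 stood at 0.46 (adjusted p = 0.060) and Chil3 at -0.26 (adjusted p = 0.18). Of the basement membrane genes 0 were called by edgeR and 3 had an unadjusted p under 0.05, with Lamb2 at 0.20 (adjusted p = 0.49) and Col4a2 at -0.13 (adjusted p = 0.75). Of the adipocyte genes 4 of 5 were lower, Cidec and Ucp1 among them. Cd79a was no longer called (-0.48, adjusted p = 0.096), and 1 other gene of B and plasma cells was lower, Jchain, the joining chain of secreted antibodies (-0.83), which is named after its value was seen.

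In the lists of mesothelium, nerve sheath and red blood cells, with 4 genes each, 0 were called by edgeR, and 0, 1 and 0 had an unadjusted p under 0.05. Msln and Upk3b of mesothelium changed by 0.07 ± 0.15 and 0.25 ± 0.14. S100b of nerve sheath changed by 0.34 ± 0.40, and the globins Hba-a2 and Hbb-bs by -0.05 ± 0.13 and -0.03 ± 0.13.

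**Figure D4:**
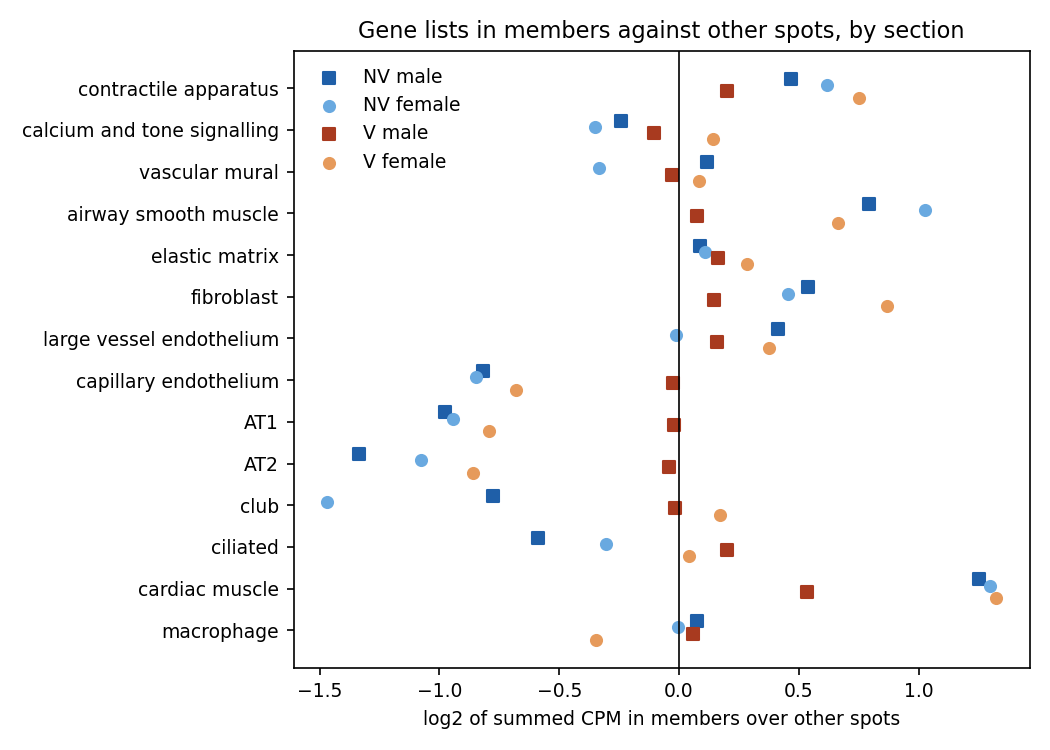
log2 of the summed CPM of a gene list in members over other spots (x axis) for 14 lists (y axis), 1 point per section (blue NV, red and orange V, squares males, circles females). The contractile list lies right of 0 in the 4 sections (1.15 to 1.69 times), the AT2 list left of it, and the cardiac list of the V male rests on 17 UMIs in members.

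Outside the lists, the largest rises among genes of at least 20 CPM on average were those of Ccn3, Pcdh7, Hamp, Gm31659, Akap6, Frmd5, Phkg1, Tbx20, 9330158H04Rik and Mylk4. Ccn3, a matricellular protein of vessel walls, had 35.4, 42.3, 7.52 and 93.7 CPM in members and 11.9, 12.0, 1.96 and 18.2 CPM in other spots (2.23 ± 0.18, adjusted p = 4.1e-21). Pcdh7, a protocadherin, changed by 2.004 ± 0.17 and Mylk4, a myosin light chain kinase family member, by 1.61 ± 0.18. Members of the V male held 0 UMIs of Akap6, Frmd5, Phkg1, Tbx20, 9330158H04Rik and Mylk4. They held 1 UMI each of Pcdh7 and Gm31659, 2 of Hamp and 4 of Ccn3. Pcdh7 stood there at 0.960 times its level in other spots. Ccn3, Pcdh7 and Mylk4 were called among spots with under 1% of cardiac UMIs, at 2.10, 1.78 and 1.38. The other 7 were not, among them Hamp (hepcidin), which changed by 1.85 ± 0.14 over the full set and by 0.04 there, and Tbx20, a T-box factor of the heart, which changed by 1.62 ± 0.18 and 0.10.

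Among the 10 largest falls, between -1.18 ± 0.22 and -0.81 ± 0.16, were those of 2210011C24Rik, Zfp366, Aplnr, Slc16a9, H2-DMb2, Tmem45b, Ly6c2, Aldh9a1 and Cd79b. Aplnr, the apelin receptor of capillary cells, was lower in the 4 sections (-0.90 ± 0.21), as was Cd79b of the B cell receptor (-0.81 ± 0.16). Of the 10, 2210011C24Rik and Tmem45b were also called among spots with under 1% of cardiac UMIs.

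The study's own question was what vaping changes. V and NV mice were compared over the 4 sums of members with the same test, and 0 of 7619 genes were called (0% of those tested), although 211 had an unadjusted p below 0.05, and no adjusted p was lower than 0.992. The Wald test of DESeq2 called 2 genes, Igha and Nr4a1. On simulated sums with the spread of this comparison, edgeR recovered 23 of 169 tested genes given a log2 change of 2 in size and DESeq2 61, so most changes of that size would go uncalled here. The spread between mice of 1 group was wide, with a common biological coefficient of variation of 0.364. Leaving out a V section changed the count, to 118 without the V male (76 higher, 42 lower in V) and to 1186 without the V female (331 higher, 855 lower), and these fits assume that the lone V section varies like the NV pair. Without the NV male or the NV female 0 were called.

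The contractile genes were called in neither direction: 0 of 22 passed, the median log2 difference was 0.02 (V minus NV, range -1.57 to 0.92), and 1 had an unadjusted p under 0.05. Both V sections lay above both NV sections for 9 of the 22 genes and below for 5, beside 25.7% and 11.2% of all genes tested. Myl9 overlapped, with 302 and 281 CPM in NV members and 109 and 525 CPM in V members, and so did Lmod1, Tpm2 and Synpo2. The 1 gene under 0.05 was Mylk, the myosin light chain kinase that triggers contraction, with 136, 107, 337 and 205 CPM in members (0.92 ± 0.36, adjusted p = 0.992). Of 8 tested tone genes 0 were called and 0 had an unadjusted p under 0.05, with differences from -0.90 to 0.52.

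The 10 genes with the lowest p are given as values, since none passed. Igha, the constant region of immunoglobulin A, had 20.8, 17.8, 175 and 186 CPM in members (3.02 on the log2 scale, adjusted p = 0.992 by edgeR and 0.0082 by DESeq2). The other spots held 75.5 and 43.6 CPM in NV and 297 and 221 CPM in V, so the groups were apart there too. Ighm, the constant region of immunoglobulin M, went the other way, with 821 and 599 CPM in NV members and 77.1 and 156 CPM in V members (-2.74), and Iglc3, a light chain, had 43.8 and 49.0 against 16.9 and 14.5 CPM (-1.75). Iglc3 has near-identical copies among the lambda constant genes, and how reads were split between them was not measured.

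Also among the 10 was Nr4a1, a nuclear receptor induced within minutes of a stimulus, with 290 and 114 CPM in NV members and 24.4 and 18.0 CPM in V members (-3.46, adjusted p = 0.992 by edgeR and 0.0058 by DESeq2). Nr4a3, of the same family, had 22.9 and 35.6 against 3.76 and 6.51 CPM (-2.47), and Apold1, an early response gene of endothelium, 29.2 and 24.5 CPM against 0 and 2.004 CPM. The remaining 4 were Acaa1b (2.89), Snrpn (-1.61), Aox3 (2.003) and Foxa1 (2.14), and each of the 10 had an adjusted p of 0.992. The non-smooth muscle content of the members also differed between sections. Both V sections lay below both NV sections for 8 of 8 cardiac genes and above them for 5 of 6 AT1 genes. Over all genes tested these shares were 11.2% and 25.7%. The V and NV sections overlapped for the 8 fibroblast, 5 club and 4 adipocyte genes tested and for 4 of 7 AT2 genes. The cardiac list reached 20840 CPM in members of the V female and 32.0 CPM in those of the V male. The part of this content in the values above was not tested.

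**Figure D5:**
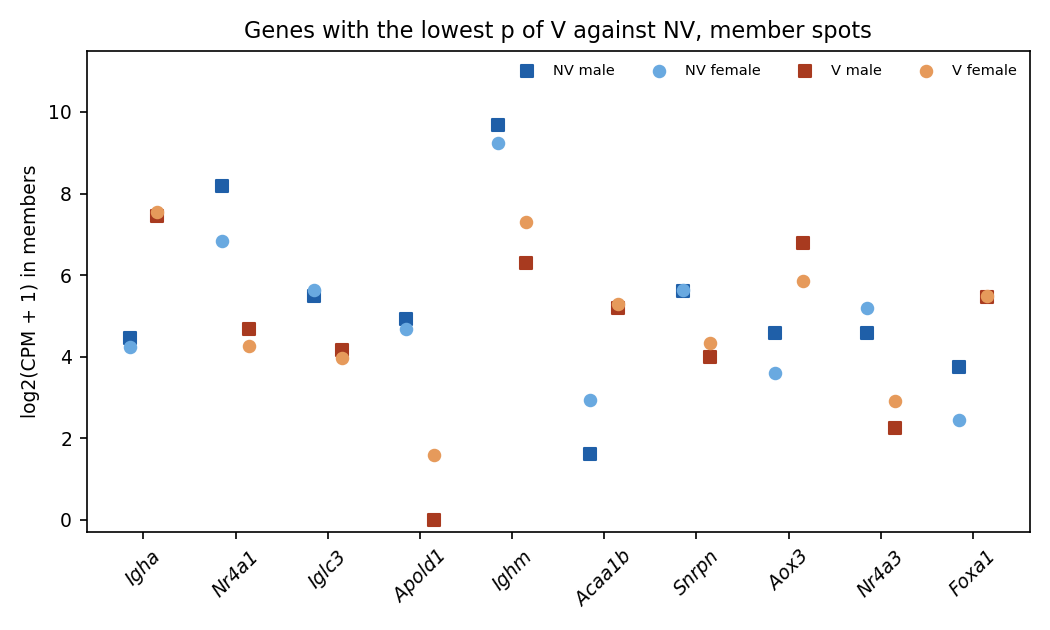
log2(CPM + 1) in member spots (y axis) of the 10 genes with the lowest p of V against NV (x axis), 1 point per section (blue NV, red and orange V, squares males, circles females). The 10 genes were chosen by p in these same sums, so the gap between their V and NV points is no separate result. Of all genes tested, 25.7% had both V sections above both NV sections and 11.2% had them below. Igha, the first, lies at 175 and 186 CPM in V against 20.8 and 17.8 CPM in NV. No adjusted p by edgeR is under 0.992.

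Last, the difference between members and other spots was itself compared between V and NV, by the interaction term over the 8 sums. Here 123 of 13744 genes were called, 15 with a higher member-to-other ratio in V (0.109%) and 108 with a lower one (0.786%). Without the NV male 8 were called, without the NV female 5, without the V male 93 and without the V female 131, and among spots with under 1% of cardiac UMIs 8 were called, of which 0 were among the 123. The highest 2% of spots gave 0 calls by edgeR, with 486 genes at an unadjusted p under 0.05.

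Cox8b, the muscle form of a cytochrome c oxidase subunit, had 836, 1116, 3.76 and 1189 CPM in members and 364, 589, 8.37 and 1319 CPM in other spots. The ratio was above 1 in both NV sections and below 1 in both V sections (interaction -1.39 ± 0.21, adjusted p = 1.7e-07). It was 0.902 in the V female, and in the V male it rested on 2 UMIs in members and 94 in other spots. Cpt1b, which admits fatty acids to muscle mitochondria, had 93.8, 84.6, 1.88 and 88.7 CPM in members and 33.5, 38.8, 1.69 and 81.2 CPM in other spots (-1.33 ± 0.28, adjusted p = 0.0016). Its V male values rested on 1 UMI in members and 19 in other spots. Among spots with under 1% of cardiac UMIs the interaction of Cpt1b was 0.22 and that of the cardiac light chain Myl3 was 2.36, in place of -1.40 ± 0.33. Ucp1, the uncoupling protein of brown fat, was counted in 28446 UMIs in other spots of the V female and in 1 to 7 UMIs in those of the other sections. The part of heart and fat tissue in these calls was not tested.

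Of the contractile list 1 gene was called, Mylk, with 136, 107, 337 and 205 CPM in members and 198, 149, 273 and 140 CPM in other spots. It was lower in members of both NV mice and higher in those of both V mice. The interaction was 0.77 ± 0.22 (adjusted p = 0.043), and it kept its direction in the 15 alternatives run and its call in 3 of them. Of the tone list 0 were called by edgeR and 1 had an unadjusted p under 0.05. Of the club cell list 3 of 5 were called with a higher ratio in V, beside 0.109% of all genes tested, with Scgb1a1 at 0.99. Its ratio of members to other spots was 0.564 and 0.350 in the NV male and female. In the V male and female it was 1.01 and 1.02, on 139 and 23489 UMIs in members. Among spots with under 1% of cardiac UMIs none of these club genes was called in the interaction.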

How the data were processed

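The authors aligned the reads with Space Ranger to the mouse reference mm10, and deposited raw UMI counts, a table per section with 32285 genes and the spots under tissue. Their later normalization with Seurat 4.0.3 is not part of these counts. The members and all gene lists were chosen with earlier results of these data known.

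UMIs were summed per section over members and over the other spots. The sums were compared in R 4.3.3 with edgeR 4.0.16 (TMM, filterByExpr, quasi-likelihood test, Benjamini-Hochberg adjustment). Members and other spots were paired by section. The thresholds of 0.05 and 0.25 follow the study, whereas its test over spots was not used, because spots of 1 section are not replicates. The interaction had no fold threshold. Standard errors are the fold change over the root of F, so they too rest on a spread pooled in part over genes. Each test was first tested on simulated data with 200 genes changed by 2 on the log2 scale, and edgeR recovered 186 of 196 tested genes between members and other spots, 23 of 169 between V and NV and 115 of 197 in the interaction.

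Named were the 5 rule genes, the 2 to 4 called genes of each list with the largest change (or the 2 most counted where none was called), the 10 largest rises and 10 largest falls outside the lists at a mean of at least 20 CPM, and the 10 genes of lowest p or largest interaction; genes of chromosomes X and Y entered through lists alone. Of the genes so named, 2 are not reported here. Alternatives comprised other shares of spots, other UMI minimums, DESeq2 1.42.0, no count filter, thinning, a cardiac limit and each section left out. The depth of the member sums was 449060 to 1996160 UMIs. Spots can hold several cells, so no doublet filter was used, and spot positions were not used here. Promoter windows came from RefSeq.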

Additional observations from a re-analysis of the deposited data

Results flagged for a closer look

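The ratio of members to other spots differed between V and NV for 123 genes by the interaction term. Those with the largest interaction (log2, V minus NV) were Acot1, an acyl-CoA thioesterase (2.66), Echdc2 (1.603), Aox3, an aldehyde oxidase (1.48), Tspan11 (1.41) and Slc12a2, a sodium, potassium and chloride cotransporter (1.38), with a higher ratio in V, and Myl3 (-1.40), Cox8b (-1.39), Dapk2 (-1.34), Cpt1b (-1.33) and Parm1 (-1.29), with a lower one. Mylk, of the contractile list, stood at 0.77. Acot1 rested on 2 UMIs in members of each NV section, against 61 and 33 in those of the V male and V female, and Myl3 had 0 UMIs in the V male. Among spots with under 1% of cardiac UMIs none of these 11 genes was called by edgeR. Groups of 2 mice are too small for a check of single outlying mice.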

How the results depend on the processing

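The number of genes called between members and other spots, 1107, moved to 579 with the highest 2% of spots, 472 with DESeq2's Wald test (89.8% of them higher, against 68.5%), 445 with thinned sums, 258 without spots of at least 1% cardiac UMIs, 236 without both those spots and the V male (an alternative added after seeing the data), and 549 to 1312 with each section left out in turn (549 without the V female, 576 without the NV female, 631 without the NV male). Of V against NV in members, where 0 were called, DESeq2 called 2, no filter on counts 79, and leaving out 1 section 0 to 1186. With the replicate number, which also marks the sex, as a block 0 genes were called, and the deviations of same-numbered mice correlated at 0.228 over 7619 genes, with 2 pairs. The 123 interaction calls moved to 0 with the highest 2% of spots, 60 with DESeq2, 64 with thinned sums, 8 without cardiac-rich spots and 5 to 131 with 1 section left out. Members with at least 5 marker UMIs, also added after seeing the data, gave 1220, 0 and 96 calls.

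Of 1332 recomputed fold changes of the 84 genes named between members and other spots, 34 changed sign. With the cardiac limit, and again without the V male as well, these were Ckm (-0.032, -0.044), Frmd5 (-0.29, -0.30), Msln (-0.11, -0.080), Myh6 (-0.0079, -0.024), Myl7 (-0.054, -0.070), Nppa (-0.041, -0.041), Tnni3 (-0.053, -0.076), S100b (-0.10, -0.12), Upk3b (-0.10, -0.056) and Scgb1a1 (0.13, 0.13), and Vcl (0.036) in the first of these. With the highest 2% of spots they were Dynlrb2 (-0.071), Hbb-bs (0.014) and Upk3b (-0.11), with 10% S100b (-0.14), with the highest 5% over all sections Hba-a2 (0.14) and Hbb-bs (0.15), and with thinned sums Dynlrb2 (-0.13). With 1 section left out in turn, Hba-a2 ranged from -0.16 to 0.0082, Hbb-bs from -0.16 to 0.081, Msln from -0.13 to 0.16, Tppp3 from -0.14 to 0.018 and Mylk from -0.064 to 0.29. Of the interactions, Myl3 (2.36) and Cpt1b (0.22) changed sign with the cardiac limit. The cause was not tested, except that thinning and leaving out a section lower the counts tested. Members of the V male hold 419 marker UMIs in 531819 UMIs, against 529 in 449060 for the NV female, so its choice of members rests on the fewest marker molecules.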
